A study of Mus musculus with 4 samples.

Results

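The core pluripotency and embryonic stem (ES) cell-specific genes described here are 10 mouse genes: Pou5f1, Sox2, Sall4, Utf1, Fgf4, Gdf3, Tcl1, Fbxo15, Tdh and Rif1. They were chosen by name, with earlier results of these data known. Every probe set whose platform gene symbol is one of them was taken. This gave 14 probe sets of 9 genes, of 22690 probe sets in the table. Tdh was matched to no probe set and is not analysed here. All 9 remaining genes passed the filter on dim signals and were tested among 7815 genes, with 13 of their 14 probe sets above the filter.

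Expression was measured in R1 cells, an established line of mouse ES cells, on 4 Affymetrix arrays. The Brg1 knockdown group is 2 arrays of cells infected with a lentivirus that carries a short hairpin RNA (shRNA) that targets Brg1. Brg1, encoded by Smarca4, is the motor protein of SWI/SNF complexes, which remodel chromatin. The control group is 2 arrays of cells given a lentiviral shRNA against GLUT4 (Slc2a4), a glucose transporter. Cells of both groups were harvested 67 h after infection, and infections were done in duplicate. No parental genotype, uninfected cells or second hairpin per gene is described in the labels, so an effect of the hairpins on other transcripts cannot be told apart from the knockdown. P-values measure the spread between infections of a single cell line. Signals are in the linear units of the array software, and each array had been scaled to a trimmed mean of 200.1.

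Mouse ES cells keep the ability to form all tissues of the embryo through a small circuit of transcription factors. OCT4 (Pou5f1) and SOX2 bind DNA as partners, often at adjoining sites, and activate each other, themselves and other ES cell genes, while SALL4 works with them and helps to sustain Pou5f1. Fgf4, Utf1 and Fbxo15 are classical direct targets of the OCT4 and SOX2 pair. In ES cells Brg1 drives a specialised SWI/SNF complex that occupies many of the same sites as OCT4 and SOX2.

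In the knockdown, Fgf4 and Fbxo15 rose, and no other member passed the test. Fgf4 was 1.43-fold higher, a log2 difference of 0.52 ± 0.10 (SE), and Fbxo15 was 1.36-fold higher, a log2 difference of 0.45 ± 0.09 (SE). Pou5f1, Sall4 and Rif1 had log2 differences between -0.038 and 0.0094, and Sox2 had the lowest value of the group, at -0.22.

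The deposited signals do not measure promoters, and the upstream sequences are shown for orientation: Fgf4, which rose, beside Pou5f1 and Sox2, which encode the factors known to drive it. RefSeq's promoter table (build GRCm38.p6) held 5 of the 10 members. The windows are the 250 bases before the annotated start, all on the + strand: chr7:144861136-144861385 for Fgf4, chr17:35505782-35506031 for the first of the annotated starts of Pou5f1, and chr3:34649745-34649994 for Sox2. Capitals mark the letters of the GC box (GGGCGG) and of the CCAAT box (CCAAT), read on both strands.
Fgf4: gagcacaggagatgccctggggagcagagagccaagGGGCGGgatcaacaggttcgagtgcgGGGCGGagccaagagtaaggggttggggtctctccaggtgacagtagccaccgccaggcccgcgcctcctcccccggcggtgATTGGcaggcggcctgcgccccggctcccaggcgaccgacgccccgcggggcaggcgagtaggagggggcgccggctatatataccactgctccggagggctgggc
Pou5f1: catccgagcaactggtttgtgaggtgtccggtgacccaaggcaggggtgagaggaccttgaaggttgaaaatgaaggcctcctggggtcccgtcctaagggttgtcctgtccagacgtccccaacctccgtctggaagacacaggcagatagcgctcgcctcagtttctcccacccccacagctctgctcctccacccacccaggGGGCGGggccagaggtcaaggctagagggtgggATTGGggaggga
Sox2: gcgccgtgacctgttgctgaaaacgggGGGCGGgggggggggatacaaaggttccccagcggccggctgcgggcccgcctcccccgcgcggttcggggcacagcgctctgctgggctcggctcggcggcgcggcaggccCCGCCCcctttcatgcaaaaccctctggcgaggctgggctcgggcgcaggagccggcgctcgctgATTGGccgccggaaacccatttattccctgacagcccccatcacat
The Fgf4 window held 2 GC boxes and 1 CCAAT box, the Sox2 window likewise 2 and 1, and the Pou5f1 window 1 of each. Of all 32851 windows of this length, 32.7% held a GC box and 33.8% a CCAAT box. Neither the octamer ATGCAAAT, the letters bound by OCT4 and present in 1.6% of all windows, nor the SOX letters AACAAT (9.42%) was found in these 3 windows. The other SOX letters searched, ACAAAG (16.5%), occurred 1 time, in the Sox2 window. No base was shared between matches in these windows, and a match describes letters only. The window of the second annotated start of Pou5f1, not printed, held AACAAT at -159. Sequence outside the windows was not searched, so an absence here says nothing about control by OCT4 and SOX2 from elsewhere. GC content was 71.2% for Fgf4, 72.0% for Sox2 and 62.0% for Pou5f1, against a median of 52.4% over all windows.

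The knockdown itself was checked on Smarca4. Its signals were 652.1 and 621.5 in the knockdown and 1186.6 and 1213.6 in the control, so the transcript fell in part (log2 difference -0.89 ± 0.08, SE; limma, adjusted p = 0.000232). Slc2a4 was too dim to be tested. Of all 7815 genes tested, 1127 (14.4%) changed at an adjusted p under 0.05, with 729 (9.33%) higher and 398 (5.09%) lower. The split depends on the scale: 622 were higher and 598 lower with each array centred on its median, and 1423 higher and 31 lower with each array scaled to the bacterial and phage transcripts added before hybridisation. That last scaling moved the median log2 difference of all genes from 0.035 to 0.33, so directions below are relative to the deposited scale.

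**Figure D1:**
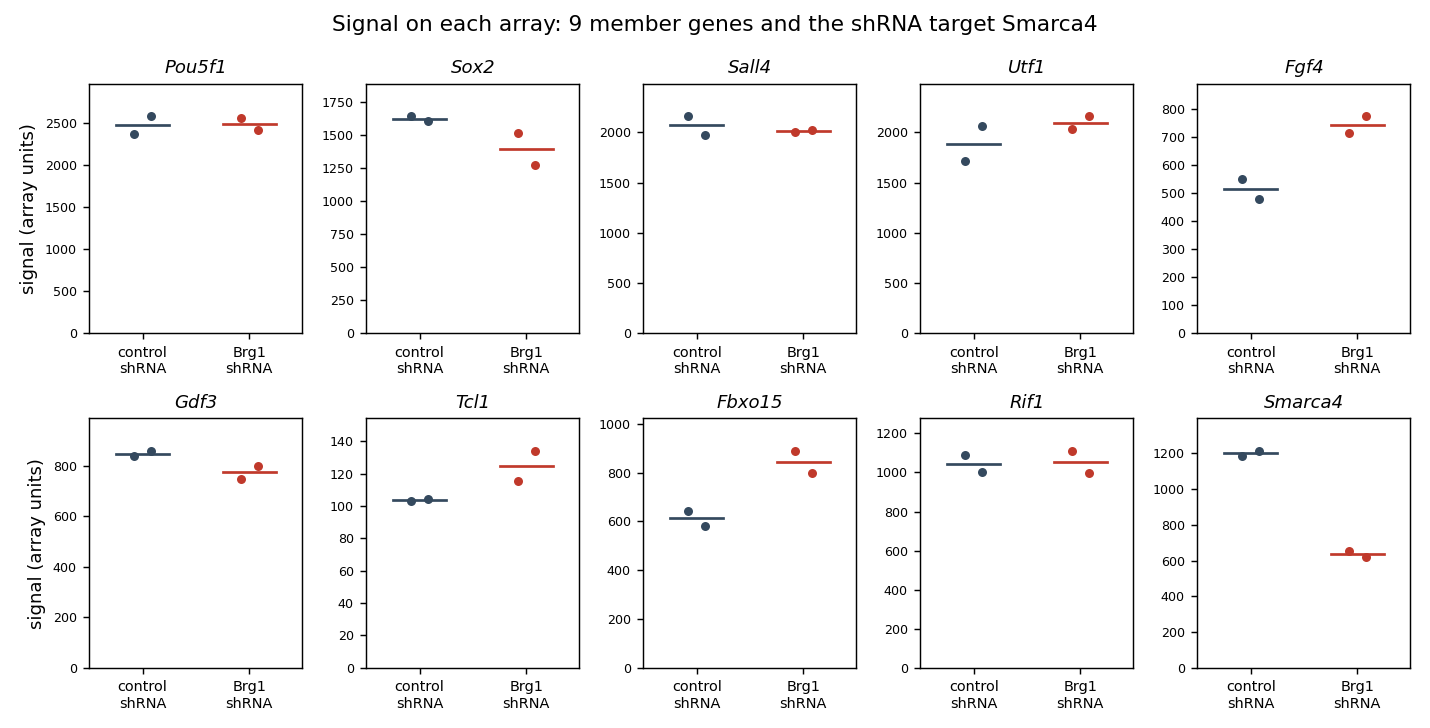
Signal (linear array units, each axis from 0) of the 9 member genes and of Smarca4 on the 2 control (dark) and 2 Brg1 shRNA (red) arrays; points are arrays and lines are group means. The knockdown points of Fgf4 (712.5 and 774.2) and Fbxo15 (889.5 and 798.2) lie above their control points, and those of Pou5f1 lie among them.

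Pou5f1 encodes OCT4, the POU factor without which ES cells lose their identity. Its signal was 2555.8 and 2417.8 in the knockdown and 2367.4 and 2579.2 in the control. The control arrays span nearly the same range as the knockdown arrays, and the groups overlap. The means were 2487 ± 97.6 and 2473 ± 149.8 (SD, n = 2 each). On the log2 scale they differed by 0.0085 ± 0.07 (SE), with an adjusted p of 0.95 in limma. The 95% interval ran from -0.15 to 0.17, so these arrays leave room for a change of that size in either direction.

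Sox2 encodes the HMG-box partner of OCT4. Its signal was 1515.8 and 1272.4 in the knockdown and 1643.8 and 1608.2 in the control. Both knockdown arrays lie below both control arrays, the second of them by far the most. The means were 1394 ± 172 and 1626 ± 25.2 (SD, n = 2 each). The log2 difference, -0.22 ± 0.09 (SE), had a 95% interval of -0.43 to -0.022. It did not pass adjustment over all genes (limma, adjusted p = 0.125). The value rested on knockdown replicate 2: without it the log2 difference was -0.10 (adjusted p = 0.596), and without knockdown replicate 1 it was -0.35 and passed (adjusted p = 0.0311).

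Sall4 encodes a zinc finger factor of the same circuit. Its signal was 1999.5 and 2027.1 in the knockdown against 2162.1 and 1978.4 in the control, and the groups overlap. The log2 difference was -0.038 ± 0.07 (SE; limma, adjusted p = 0.756), with a 95% interval of -0.20 to 0.13. A second Sall4 probe set, 1424153_s_at, read 465.9 and 471.7 against 492 and 464.1, a log2 difference of -0.027 with the groups again overlapping. Both probe sets thus gave differences close to 0.

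Among the targets of the circuit, Fgf4 had the largest difference of the members. Fgf4 encodes the fibroblast growth factor that ES cells secrete and that acts back on them through FGF receptors and ERK. Its signal was 712.5 and 774.2 in the knockdown and 550.5 and 479 in the control, with no overlap between the groups. The means were 743 ± 43.6 and 515 ± 50.6 (SD, n = 2 each), and the log2 difference of 0.52 passed the test (limma, adjusted p = 0.00854; 95% interval 0.30 to 0.73).

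The array holds 4 probe sets of Fgf4, which did not read alike. Probe set 1420086_x_at, whose probes may also bind other transcripts and which is annotated to the same accession as 1420085_at, read 648 and 664 against 478.8 and 434.3. Its log2 difference was 0.51 (limma with every probe set tested by itself, adjusted p = 0.0137). Probe set 1450282_at read 133.9 and 131.9 against 83 and 119, a log2 difference of 0.35 that did not pass (adjusted p = 0.189). Both of these also had the knockdown arrays above the control arrays. The fourth, 1449729_at, read between 0.7 and 8.3 on all 4 arrays and lay below the filter. With the mean of all 4 probe sets in place of the brightest, the log2 difference of Fgf4 was 0.31 and no longer passed (adjusted p = 0.0712).

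Fbxo15 encodes an F-box protein, a substrate-binding subunit of a ubiquitin ligase, and is known as a reporter of the ES cell state. Its single probe set read 889.5 and 798.2 in the knockdown and 644 and 582.6 in the control, so the groups do not overlap. The means were 844 ± 64.6 and 613 ± 43.4 (SD, n = 2 each). The log2 difference of 0.45 passed (limma, adjusted p = 0.013; 95% interval 0.24 to 0.66). The call was lost without the filter on dim genes (adjusted p = 0.052) and without the intensity trend (adjusted p = 0.055).

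Utf1 encodes a chromatin-bound protein of undifferentiated ES cells. Its signal was 2030.6 and 2162.4 in the knockdown and 1711.1 and 2062.2 in the control. Control replicate 2 lies between the knockdown arrays, so the groups overlap. The log2 difference was 0.16 ± 0.09 (SE; limma, adjusted p = 0.285), with a 95% interval of -0.052 to 0.36. It ranged from 0.023 without control replicate 1 to 0.29 without control replicate 2. The value thus varied with the control array used.

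**Figure D2:**
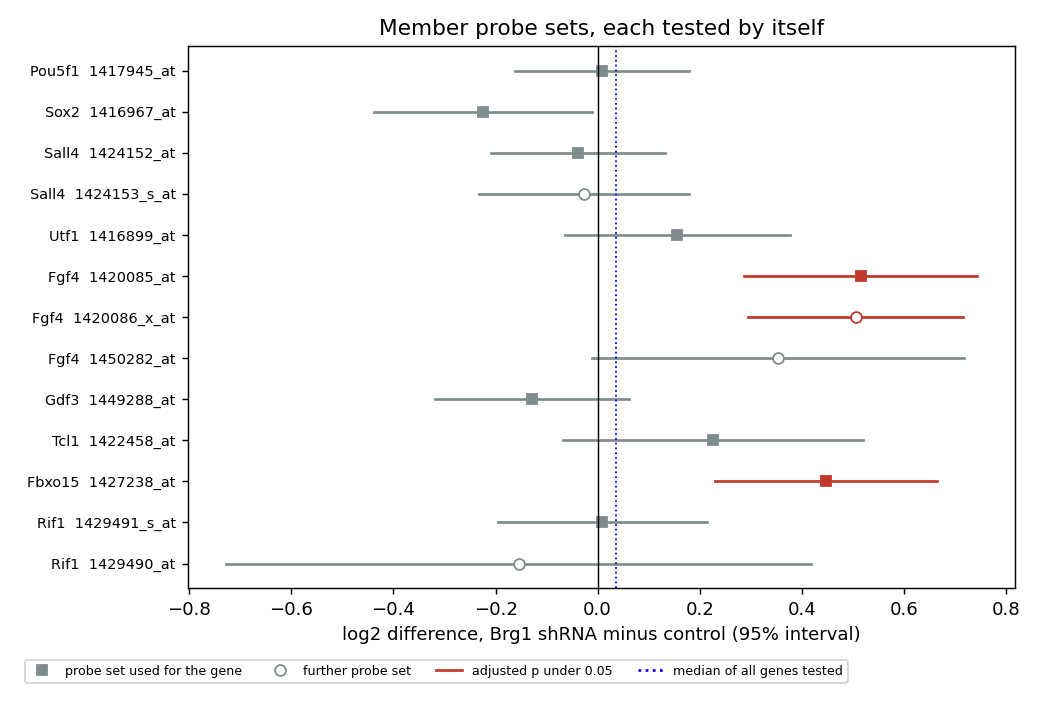
Log2 difference (Brg1 shRNA minus control, x axis) with its 95% interval for the 13 member probe sets above the filter, each tested by itself; squares are the probe set used for the gene, circles further probe sets, and red marks an adjusted p under 0.05. The intervals of 2 Fgf4 probe sets and of Fbxo15 lie wholly above 0, while that of Sox2 lies below 0 without passing adjustment.

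Gdf3 encodes a ligand of the TGF-beta family. Its signal was 748.5 and 799 in the knockdown and 836.3 and 858.2 in the control. Both knockdown arrays lie below the control arrays, by a log2 difference of -0.13 ± 0.08 (SE) that did not pass (limma, adjusted p = 0.315; 95% interval -0.31 to 0.054). Tcl1 encodes a coactivator of the kinase AKT. It read 115.5 and 134 against 103.1 and 104, with the knockdown arrays above. Its log2 difference, 0.23 ± 0.13 (SE; limma, adjusted p = 0.26; 95% interval -0.059 to 0.51), was 0.13 without knockdown replicate 2.

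Rif1 encodes a protein of replication timing, telomeres and DNA break repair that is abundant in ES cells. Its brighter probe set, 1429491_s_at, read 1110.4 and 995.4 in the knockdown and 1088.8 and 1001.8 in the control, and the groups overlap. The log2 difference was 0.0094 ± 0.09 (SE; limma, adjusted p = 0.953), with a 95% interval of -0.19 to 0.20. The dimmer probe set, 1429490_at, read 47.2 and 20 against 44.7 and 31.5, and its interval of -0.73 to 0.42 is too wide to compare with the first.

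Among the members, 2 of 9 rose, 0 fell and 7 gave no call. At an unadjusted p under 0.05, limma gave the same number of rises and 1 fall, that of Sox2. Over all 7815 genes tested, that threshold gave 1497 rises and 949 falls, the background for every unadjusted count given here. The 22.2% called rests on 2 genes, and the share over all genes was 14.4%. The median log2 difference of the members was 0.0094, against 0.035 over all genes tested, and the median size without sign was 0.16 against 0.18. In 5 of the 9 the arrays did not overlap between the groups, 3 with the knockdown above and 2 below. Over all genes tested, 60.2% did not overlap (34.3% above and 25.9% below), so this count is near the background. With every probe set tested by itself, 3 of the 13 member probe sets rose and 0 fell, where 9.26% of all probe sets passed (5.9% higher and 3.36% lower).

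**Figure D3:**
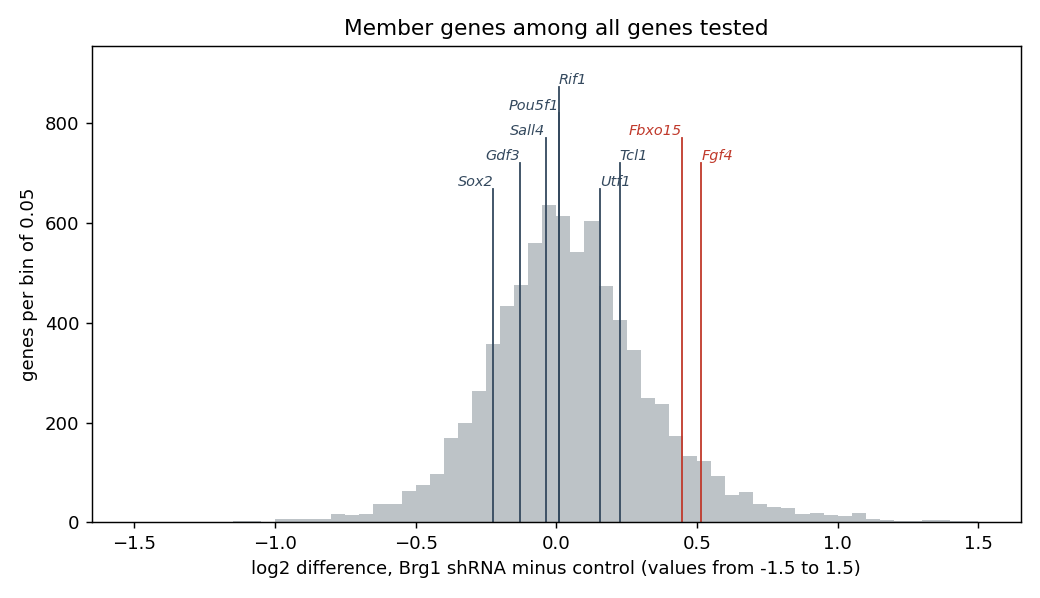
Histogram of the log2 differences (Brg1 shRNA minus control, x axis) of all genes tested that lie between -1.5 and 1.5, in bins of 0.05; vertical lines mark the 9 members, red for an adjusted p under 0.05. Sox2 (-0.22) to Tcl1 (0.23) lie in the body of the distribution and Fbxo15 (0.45) and Fgf4 (0.52) on its upper shoulder.

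A comparison within each array does not depend on how the arrays were scaled, beyond a small effect of the pseudocount. Taken relative to Pou5f1 on the same array, with the control mean set to 0, the log2 value of Fgf4 was 0.41 and 0.605 in the knockdown and 0.16 and -0.16 in the control. Fbxo15 was at 0.48 and 0.40 against 0.13 and -0.13. Relative to Sox2, Fgf4 was at 0.56 and 0.92 against 0.081 and -0.081, and Fbxo15 at 0.62 and 0.72 against 0.054 and -0.054. In all of these the groups do not overlap, as was the case for both genes before the ratio was taken. Sox2 relative to Pou5f1 was at -0.15 and -0.32 against 0.077 and -0.077, also without overlap, and so were Gdf3 (below) and Tcl1 (above). Sall4, Utf1 and Rif1 relative to Pou5f1 overlapped between the groups. Relative to Sox2, which was itself low in the knockdown, Pou5f1, Sall4, Utf1, Tcl1 and Rif1 also lay above without overlap. Only Gdf3 overlapped there, so that ratio is not particular to Fgf4 and Fbxo15. Before any ratio, 60.2% of all genes tested did not overlap, and no such share was taken for ratios. These ratios are a description: with 2 arrays a group an exact permutation test cannot give a two-sided p below 0.333.

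The 3 tested genes whose profile over the 4 arrays was closest to that of Fgf4 were Arhgef5, Nfatc1 and Vkorc1, at root mean square distances of 0.019, 0.021 and 0.022 on the log2 scale. Their log2 differences were 0.53, 0.54 and 0.53 (limma, adjusted p = 0.0469, 0.0562 and 0.00622), so Nfatc1 did not pass. Nfatc1 passed with no intensity trend (0.0319) and with the spike-in scaling (0.0109). Arhgef5 did not pass with no filter (0.134), quantile normalization (0.0678) or median centring (0.059). Vkorc1, a vitamin K enzyme gene, read 656.9 and 713.7 in the knockdown and 490.6 and 445.2 in the control. Over 4 arrays in 2 groups such likeness is a description only.

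In a list of the wider pluripotency network, 12 of 32 tested genes rose, 5 fell and 15 did not pass (53.1% called, against 14.4% of all genes). The median log2 difference of the list was 0.21, and 23 of its 32 genes lay above 0. Over all genes tested, 4331 of 7815 lay above 0 on the deposited scale. Nodal, the TGF-beta ligand, read 908.8 and 941.1 in the knockdown and 297.1 and 324 in the control (log2 difference 1.52 ± 0.09, SE; limma, adjusted p = 2.53e-05). Zfp296, a zinc finger gene of ES cells, read 560 and 591.2 against 251.8 and 269.2 (1.09 ± 0.09). Nanog, which shares many binding sites with OCT4 and SOX2, rose by 0.87 ± 0.08. The list overlaps lists in which these rises were already known, so its count is no independent evidence. The difference between this list and the core members was not tested.

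**Figure D4:**
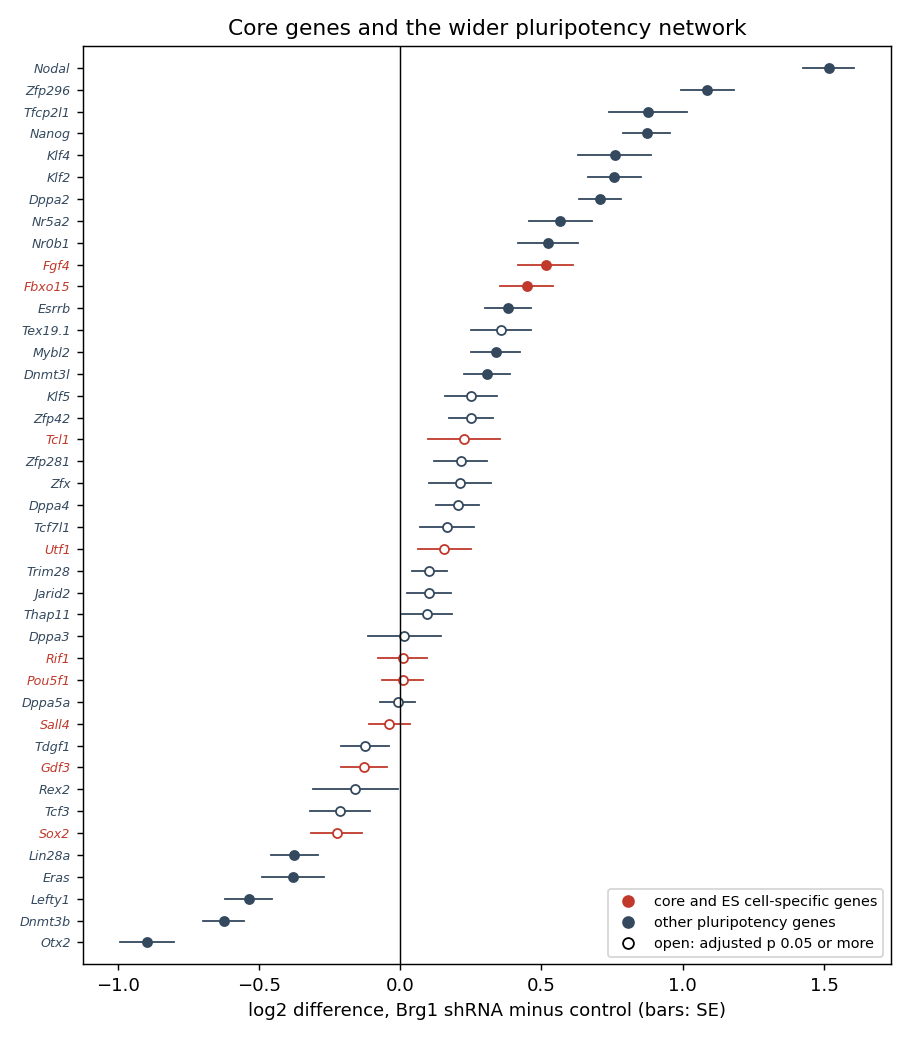
Log2 difference (Brg1 shRNA minus control, x axis; bars are the SE) of the 9 core and ES cell-specific genes (red) and of 32 other tested pluripotency genes (dark), sorted; filled points passed at an adjusted p under 0.05. Nodal (1.52) is at the upper end and Otx2 (-0.90) at the lower end. Pou5f1, Sall4 and Rif1 lie near 0 and Sox2 at -0.22.

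Relatives of the 3 core factors were read on the same arrays. Of 12 tested SOX, POU and SALL paralogs, 2 rose, 3 fell and 7 did not pass (41.7% called, against 14.4% of all genes). Sox15, a SOX gene of ES cells, read 71.8 and 58.5 in the knockdown and 22.9 and 27 in the control (log2 difference 0.92 ± 0.16, SE; limma, adjusted p = 0.00682). Sox4 (-0.60 ± 0.09) and Sox11 (-0.74 ± 0.14), related factors known from neural and other progenitors, fell. Both lost their calls with the spike-in scaling (adjusted p = 0.327 and 0.119).

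Of 23 tested genes for FGF receptors, heparan chain synthesis and the ERK relay, 6 rose, 0 fell and 17 did not pass (26.1% called). Over all genes 14.4% were called, with 9.33% higher. At an unadjusted p under 0.05 limma gave 7 rises and 2 falls. Dusp6, a phosphatase that ERK signalling induces and that restrains ERK, read 1087 and 1024.3 against 688.1 and 668.8 (log2 difference 0.62 ± 0.08, SE; limma, adjusted p = 0.00134). Fgfr1, the main FGF receptor of ES cells, rose by 0.46 ± 0.10. Hs2st1, which sulphates the heparan chains that FGFs bind, rose by 0.52 ± 0.12. The Spry and Etv genes of the list went both ways and none passed. Spry1 was at -0.34 (limma, adjusted p = 0.103), Etv4 at -0.16 and Spry2 at -0.014. Spry4 was at 0.38 and Etv5 at 0.25, and 18 of the 23 genes lay above 0 (4331 of 7815 over all genes tested). With knockdown replicate 1 or control replicate 1 left out, Fgfr1 no longer passed (adjusted p = 0.0565 and 0.0627). Hs2st1 did not pass with knockdown replicate 2 or control replicate 1 left out (0.12 and 0.0509). Neither passed with no filter, with no intensity trend or when all probe sets were averaged.

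For the pathway of Gdf3, 1 of 15 tested receptors, ligands and SMADs rose, 2 fell and 12 did not pass. The 20% called is near the 14.4% of all genes. Nodal was the rise. Lefty1, a secreted antagonist of NODAL, fell (log2 difference -0.54 ± 0.08, SE; limma, adjusted p = 0.00376), as did the receptor gene Acvr2b (-0.51 ± 0.12; adjusted p = 0.0252). With knockdown replicate 2 or control replicate 2 left out, Acvr2b no longer passed (adjusted p = 0.0825 and 0.118), nor with no filter or no intensity trend. Neither fall passed with the spike-in scaling (0.457 and 0.493).

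Of 8 tested genes of the TCL1 family and AKT signalling, 1 rose and 1 fell (25% called, against 14.4% of all genes). The list holds Pdk1, which the annotation uses for a pyruvate dehydrogenase kinase. Akt2, an AKT kinase, rose, with a log2 difference of 0.54 ± 0.12 (limma, adjusted p = 0.0148). Pdpk1, the kinase that activates AKT, fell, with a log2 difference of -0.55 ± 0.11 (adjusted p = 0.0138). Akt2 did not pass with knockdown replicate 2 left out (adjusted p = 0.0807), nor Pdpk1 with control replicate 1 left out (0.0681). With no filter neither passed (0.0573 and 0.052), and Pdpk1 did not pass with the spike-in scaling (0.403). Mtcp1, a relative of Tcl1, differed by 0.49 on that scale without passing (adjusted p = 0.0684). It passed with the spike-in scaling (0.011) and with knockdown replicate 1 left out (0.0407).

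Of 14 tested partners of RIF1 at telomeres and DNA breaks, 0 rose, 1 fell and 13 did not pass. The share called was 7.14%, against 14.4% of all genes. At an unadjusted p under 0.05 limma gave 1 rise and 5 falls. The fall was Terf1, a telomere-binding protein gene, which read 251.2 and 203.1 against 296 and 362.1 (log2 difference -0.50 ± 0.13, SE; adjusted p = 0.0357). Terf1 no longer passed with knockdown replicate 2 or control replicate 2 left out (adjusted p = 0.16 and 0.132), with no filter, with no intensity trend or with the spike-in scaling. Brca1 (0.29, adjusted p = 0.058) and Ppp1cb (-0.43, adjusted p = 0.0623) did not pass. Brca1 passed with the spike-in scaling (0.0389). Ppp1cb passed with the replicate block (0.0284), with median centring (0.0301), and with knockdown replicate 1 (0.00239) or control replicate 1 (0.0473) left out. Of 8 tested ubiquitin ligase genes related to Fbxo15, 0 passed, against 1 rise and 2 falls at an unadjusted p under 0.05. Their log2 differences ran from -0.40 (Fbxo11) to 0.34 (Fbxw7), with Btrc at -0.28. Fbxw7 passed with the spike-in scaling (adjusted p = 0.0295) and Fbxo11 with knockdown replicate 1 left out (0.0421).

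Tdh encodes the enzyme that starts threonine breakdown in mouse ES cells. It was not read, but genes of the same route to glycine and folate were, in a list that also holds Tars, which is not of that route. Of 8 tested, 0 rose, 3 fell and 5 did not pass (37.5% called, against 14.4% of all genes). At an unadjusted p under 0.05 limma gave 1 rise and 4 falls. Gldc, a subunit of the glycine cleavage system, read 250.3 and 200.7 in the knockdown and 380 and 404.9 in the control (log2 difference -0.76 ± 0.12, SE; limma, adjusted p = 0.00367). Mthfd2, a mitochondrial folate enzyme, fell by 0.63 ± 0.08 and Tars, which charges threonine onto its transfer RNA, fell by 0.48 ± 0.09 on the log2 scale. All 3 lost their calls with the spike-in scaling (adjusted p from 0.136 to 0.591).

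Markers of other cell types were read on the same arrays. In these bulk samples, fewer cells of a type and less RNA per cell cannot be told apart. Of 20 fibroblast genes, which would mark feeder cells, 15 lay below the filter, among them Col1a1 (5.9 to 16). Their summed signals were 786.1 and 811.5 in the knockdown and 780.6 and 899.4 in the control, so the groups overlap. Of the 5 tested, 0 passed, and at an unadjusted p under 0.05 limma gave 2 rises and 2 falls, with Col5a1 at 0.44, Tagln at -0.31 and Thy1 at -0.48. Tagln passed with median centring (adjusted p = 0.0475) and with control replicate 1 left out (0.0243), and Col5a1 with no intensity trend (0.0393) and with the spike-in scaling (0.0225).

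Most tested trophectoderm markers lay higher in the knockdown, and some of the list lay lower. Of 16, 9 were tested, 4 rose and 0 fell (44.4% called, against 14.4% of all genes). At an unadjusted p under 0.05 limma gave 4 rises and 1 fall. Of the 9, 8 lay above 0, against 4331 of 7815 over all genes tested. The summed signals of the 16 were 1704.7 and 1856.2 in the knockdown and 1129.1 and 1186.6 in the control. Krt8 alone gave 690 and 785.1 of these against 326.1 and 372.2. Krt8, a keratin of simple epithelia, rose by 1.04 ± 0.10 on the log2 scale (SE). The transcription factor gene Tfap2c rose by 0.93 ± 0.17 and Hand1 by 0.80 ± 0.17. The other rise was Fgfr2 (67.7 and 125.2 against 40.4 and 46), which is also counted among the FGF receptor and ERK genes above. The control arrays of Hand1 (18.9 and 21.6) lay below the filter level of 23.9. Hand1 thus entered the test only through its knockdown arrays, which favoured a rise. With no filter neither Tfap2c nor Hand1 passed (limma, adjusted p = 0.0565 and 0.0675), and Hand1 did not pass with knockdown replicate 2 (0.0653) or control replicate 1 (0.0652) left out. Of the defining markers, Gata3 (1.2 to 2.2) was near 0 on all 4 arrays. Elf5 (5.7 and 13.2 in the knockdown against 1.5 and 1.1) and Cdx2 (21.6 and 29 against 8.7 and 12.1) read higher, below the filter. Eomes read 50.6 and 42.3 against 28.1 and 38.6 without passing (limma, adjusted p = 0.236). Krt19 read lower in the knockdown without passing (73.3 and 67.2 against 91 and 98.8). Tead4 (4.1 and 3.9 against 14 and 15.9) and Ascl2 (8 and 5.8 against 15.3 and 12) also read lower, below the filter. No marker of this list was at 0. The part of these markers in the values of Fgf4 and Fbxo15 was not tested.

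Primitive endoderm markers gave sums of 2247.9 and 2417.6 against 1882.7 and 2211.3. Of 8 tested, 2 rose, 1 fell and 5 did not pass (37.5% called, against 14.4% of all genes). Foxa2 had a log2 difference of 0.94, Sparc of 0.43 and Lama1 of -0.55, and each lost its call without at least 1 array. The control arrays of Foxa2 (9.9 and 16.3) lay below the filter level of 23.9. Foxa2 thus entered the test only through its knockdown arrays (35.7 and 51.9), which favoured a rise. Gata4 (18.5 and 29.1 in the knockdown against 9.1 and 15.6) and Sox17 (31.1 and 22.8 against 14.9 and 19.4) read higher, below the filter. Gata6 (16.7 and 21.6 against 28 and 21.7) read lower, also below the filter. All 12 mesoderm and primitive streak markers read lay below the filter, with sums of 135.4 and 155.1 against 92.5 and 107. Of 6 tested neuroectoderm genes, Nefl rose by 0.74, Gap43 fell by 0.90 and Pax6 had a log2 difference of 0.29 that did not pass. In that list 33.3% were called, against 14.4% of all genes. Sums over that list were 1081.2 and 1226.6 against 1060.2 and 1067.9.

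The rises of Fgf4 and Fbxo15 kept their direction under all 15 alternatives run at the 0.05 threshold. Fgf4 passed in 14 of these 15 and Fbxo15 in 13, and both passed with each of the 4 arrays left out in turn. At the stricter threshold of 0.01, Fgf4 passed and Fbxo15 did not. With an array left out, Fgf4 ranged from 0.42 to 0.61 and Fbxo15 from 0.37 to 0.52. With the spike-in scaling they were 0.83 and 0.77, Pou5f1 was 0.33 and Sox2 0.10, against the median of 0.33 over all genes.

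**Figure D5:**
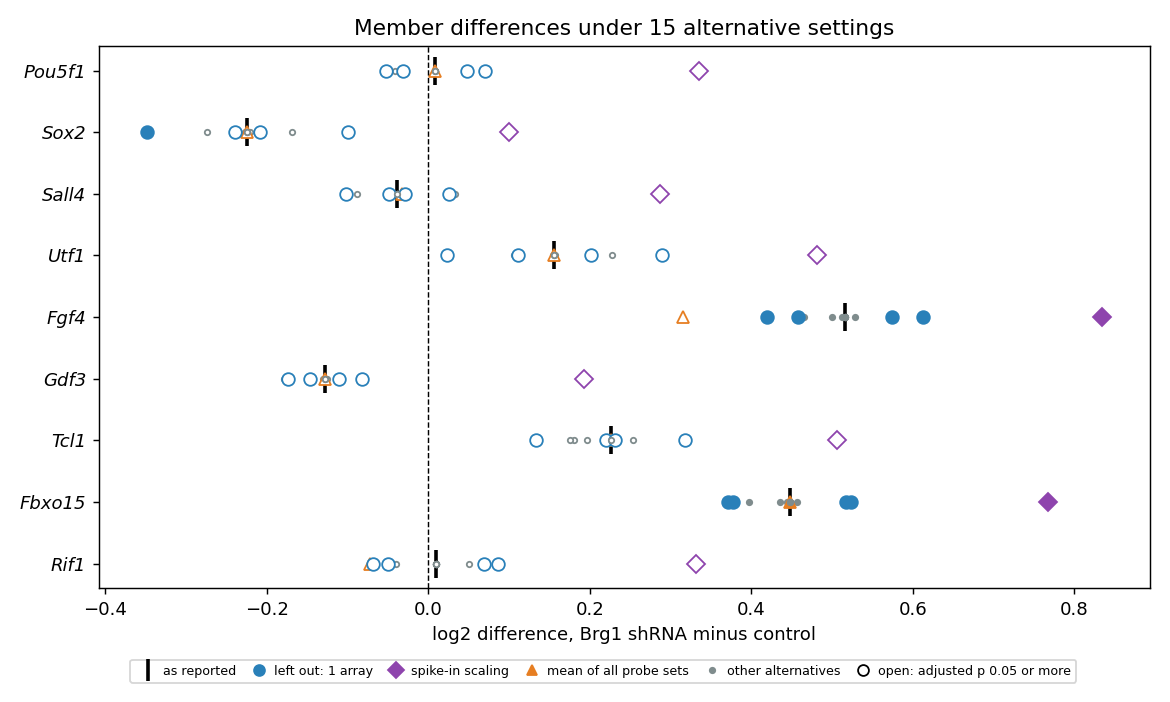
Log2 difference (Brg1 shRNA minus control, x axis) of each member as reported (black bar) and under 15 alternative settings; blue circles leave out 1 array, purple diamonds are the spike-in scaling, orange triangles the mean of all probe sets, and open symbols did not pass. Fgf4 and Fbxo15 stay above 0 throughout, and Pou5f1, Sall4 and Rif1 scatter on both sides of 0.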

How the data were processed

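The authors deposited 1 linear signal intensity per probe set and array, made with the Affymetrix software GCOS per the submitters' processing notes; the GCOS version, the signal algorithm and the target of the scaling were not given in the sources used here. The labels and series text put 2 arrays in each group. Of 22690 probe sets, 64 are controls, 20380 have 1 gene in the platform annotation, 691 several and 1555 none. Symbols were updated by Entrez ID (20351 matched, RefSeq GRCm38.p6). Values were taken as log2(signal + 20), so folds understate changes of dim genes. The brightest probe set stood for a gene, those ending in _x_at only where no other existed, and genes at or above the 40th percentile of probe sets that are not controls (23.9 units) were tested. Groups were compared with limma 3.58.1 in R 4.3.3 (eBayes with intensity trend, two-sided, Benjamini-Hochberg over all genes tested), tested on simulated data. Every adjusted p is from limma; for further probe sets, a separate fit took 12543 probe sets each by itself. Members and lists were chosen with earlier results of these data known. Named are all members, shRNA targets, up to 3 genes of smallest p per list, and the 3 profiles nearest to the most changed member. Others named (the remaining markers, Otx2, Pdk1 and the Spry and Etv genes) were chosen after their values were seen. Alternatives changed the pseudocount (5, 40), filter, scaling, variance model, probe set, threshold and replicate block, and left out each array. The precision is limited by the number of arrays.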

Additional observations from a re-analysis of the deposited data

How the results depend on the processing

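The count of genes that changed was 433 without the filter and 393 at an adjusted p under 0.01, against 1127, and ranged from 601 to 1171 with an array left out, 601 being without knockdown replicate 2 and 719 without control replicate 1. Members that rose numbered 1 in place of 2 without the filter, without the intensity trend, when all probe sets of a gene were averaged and at an adjusted p under 0.01. Fgf4 was the one that remained in each of these except with averaged probe sets, where Fbxo15 remained. Without the filter more genes were tested (12393); for the rest the cause was not tested. Members that fell ranged from 0 to 1 with an array left out, the 1 being Sox2. Signs turned only for differences that had not passed. With the spike-in scaling Sox2 was 0.10, Sall4 0.29, Gdf3 0.19, Btrc 0.012 and Tagln 0.0069. With quantile normalization Sall4 was 0.033, with median centring Pou5f1 was -0.042 and Rif1 -0.041, and with averaged probe sets Rif1 was -0.073. With an array left out, Pou5f1 ranged from -0.053 to 0.070, Sall4 from -0.10 to 0.025 and Rif1 from -0.068 to 0.087. The replicate numbers are not shown to pair the samples (correlation of same-numbered deviations -0.14). With the replicate block 1187 genes changed, 2 members rose and 0 fell, and among the other genes named whose difference had not passed, Ppp1cb did so; with the numbers crossed, an alternative chosen after seeing the data, the counts were 1478, 2 and 0. Dim signal limits the dimmer Rif1 probe set (20 to 47.2 units, near the filter level of 23.9) and the fourth Fgf4 probe set, which lay below that level.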
